A study of Mus musculus with 8 samples.

Results

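The TRIM genes encode a large family of ubiquitin ligases, and their transcripts were followed in mouse cortex after a freezing injury. Members were all genes whose symbol is Trim followed by a number and an optional letter. They were found by matching the RefSeq accession of each array probe to a gene table. Of 68 such genes in the table, 64 had at least 1 named probe and 43 were bright enough to be tested, among 22911 named genes with a probe in the whole series. The 64 genes were read by 100 of 56605 probes.

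RNA came from the right fronto-parietal cortex, on the injured side, of 16 mice in 4 groups of 4. The groups were floxed control, microglia-derived Il6 deficient control, floxed cryolesioned and microglia-derived Il6 deficient cryolesioned mice, whose animals are biological replicates per the labels. A cryolesion is a local wound produced by freezing brain tissue. Il6 encodes interleukin-6, a cytokine of inflammation, and the deficient animals are called Il6-deficient here. The Cre driver, the part of Il6 deleted, the animals' ages and the time after injury are not given in the sources used here. Each of 8 arrays compared 2 animals, 1 labelled with Cy5 and 1 with Cy3. Together they closed a loop of 4 sides, and each side had 2 arrays with swapped dyes. Both control groups met on the control side and both cryolesioned groups on the lesion side. Floxed cryolesioned mice were set against Il6-deficient controls on the floxed-lesion side. Il6-deficient cryolesioned mice were set against floxed controls on the deficient-lesion side. A cryolesioned and a control animal thus met on 4 arrays, always across genotypes.

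A typical TRIM protein carries a RING domain that recruits a ubiquitin-loaded E2 enzyme, B-box zinc fingers, and a coiled coil through which the proteins pair. The carboxy-terminal part differs between members and sets what they bind. A SPRY domain is common among TRIMs of antiviral defence, a COS box among those that bind microtubules, and a PHD finger with a bromodomain among those that read chromatin. Several SPRY-domain members are induced by interferon, whereas Trim9, Trim46 and Trim67 are known from neurons.

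Each channel had 59.2% to 65.9% of its probes well above background, and no spot was saturated. The neuron, astrocyte, oligodendrocyte and microglia marker lists were above background in all 4 animals of every group. The groups were not balanced for sex. All 8 cryolesioned animals had Y-linked transcripts above background, as did 3 of the 4 Il6-deficient controls but 1 of the 4 floxed controls. The brighter Il6 probe was detected in 3 floxed cryolesioned animals and in 0 animals of the other groups. Whether it lies in the deleted part is not known here, so it is no firm check of the genotype label. In whole tissue, fewer cells of a type and less RNA per cell cannot be told apart.

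Averaged over both genotypes, 7 Trim genes rose after cryolesion and 3 fell. Trim47 rose most, 3.60-fold, followed by Trim30a, Trim25, Trim30d, Trim34a, Trim21 and Trim56. Trim37, Trim9 and Trim33 fell. All changes are log2 differences fitted over the 8 arrays with limma, given with their standard error (SE), and a call means a Benjamini-Hochberg adjusted p under 0.05 over 29362 tested features. The 10 called members were 23.3% of the 43 tested, against 11.9% of all features. By direction, 16.3% of members rose against a background of 6.02%, and 6.98% fell against 5.87%, so the share that fell was near the background. The family as a whole did not lean one way: 22 members lay above 0 and 21 below, with a median of 0.02 against -0.01 for all features.

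**Figure D1:**
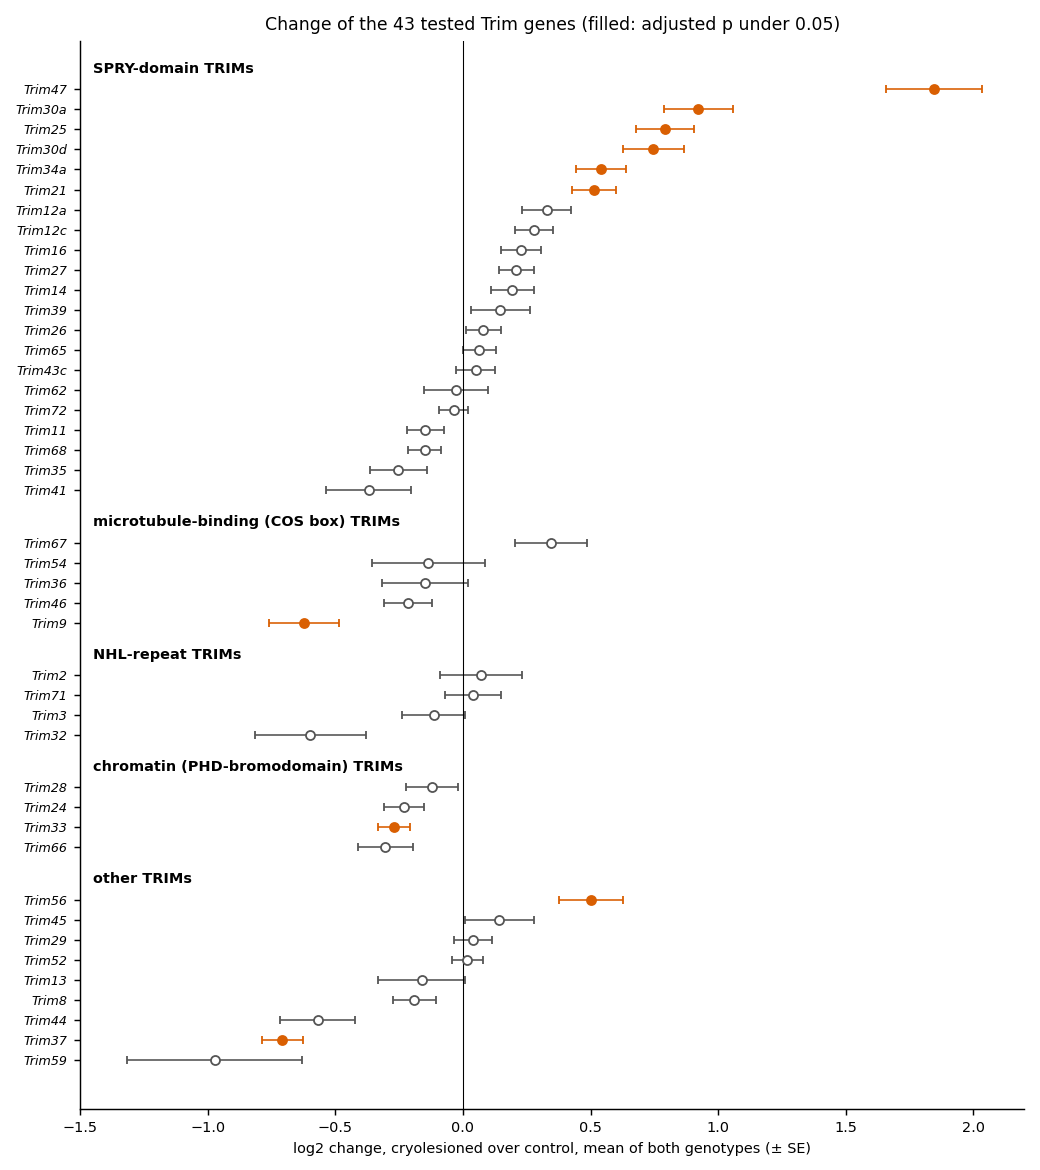
Fitted log2 change after cryolesion (x axis, mean of both genotypes, bars are SE over 8 arrays) of the 43 tested Trim genes, grouped by domain class. Filled points passed an adjusted p under 0.05: 7 lie above 0, 6 of them SPRY-domain genes, and 3 lie below.

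The number of calls moved with the arrays in the fit, for members and for all features alike. Leaving out floxed-lesion array 1 or 2 left 2 called members, Trim47 and Trim37, while the calls over all features went from 3492 to 1238 and 1004. Leaving out deficient-lesion array 2 left 5 members and 928 features, and leaving out control-side array 2 gave 16 members and 5179 features. Among members that lost a call, without floxed-lesion array 1 and 2 in turn, Trim30a changed by 0.84 and 0.797 (limma adjusted p = 0.0565 and 0.0525) and Trim25 by 0.72 in both (adjusted p = 0.0542 and 0.0541). For the mean of both genotypes, Trim47 and Trim37 were called under all 19 alternative settings, Trim25 and Trim30d under 17, and Trim30a, Trim34a and Trim21 under 16. Trim56 was called under 9, Trim9 under 7 and Trim33 under 5. Not all of these settings could move the fitted change, which is read from the 4 arrays that paired a cryolesioned with a control animal. Leaving out a control-side or lesion-side array left it as reported (Trim47 1.85, Trim30a 0.92) and moved only the adjusted p. Both values also stayed the same under the changed filters on dim probes. For a gene with 1 probe, such as Trim47, so did the mean of all probes.

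**Figure D2:**
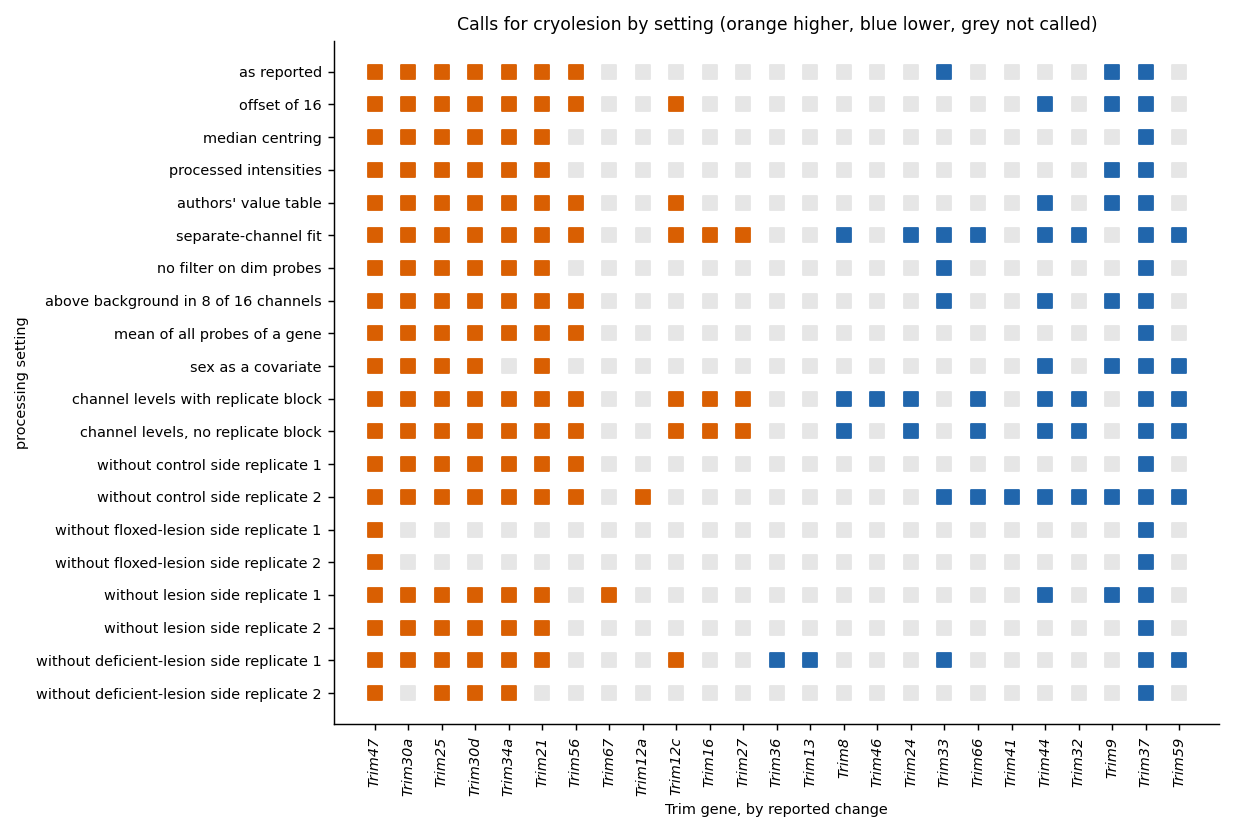
Calls for cryolesion (mean of both genotypes) of the 25 Trim genes described animal by animal (x axis, ordered by reported change) under the reported and the 19 alternative processing settings (y axis). Orange marks a gene called higher, blue one called lower and grey one not called; the columns of Trim47 and Trim37 are filled throughout.

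Levels of single animals are log2 channel intensities after normalization, listed for animals 1 to 4 of each group, and levels of different genes cannot be set against each other. Trim47 encodes a SPRY-domain ligase first described as overexpressed in astrocytoma. Its levels were 8.71, 9.03, 8.83 and 9.05 in floxed controls and 8.55, 9.01, 8.94 and 8.88 in Il6-deficient controls. They reached 10.98, 11.26, 10.41 and 11.09 in floxed cryolesioned and 11.16, 10.87, 10.17 and 10.695 in Il6-deficient cryolesioned animals. All 8 cryolesioned animals lay more than a log2 unit above every control. The change was 1.85 ± 0.19 (SE, limma adjusted p = 0.00287). Only 1 probe reads Trim47. It was called in each genotype as well, at 1.67 ± 0.27 in floxed (adjusted p = 0.0273) and 2.03 ± 0.27 in Il6-deficient animals (adjusted p = 0.0180).

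The list used for the chromosome 7 cluster holds mouse relatives of the antiviral gene Trim5 and some other Trim genes of that chromosome. Among the others is Trim3, which is not a SPRY-domain gene. Trim28, Trim66 and Trim72 also lie on chromosome 7 but were not listed, and they changed by -0.12, -0.30 and -0.04. The values below therefore hold for the listed genes, not for all Trim genes of the chromosome. Of the 13 listed genes, 11 had a probe and 8 were tested. Trim30a, Trim30d, Trim34a and Trim21 rose and none fell (backgrounds 6.02% and 5.87% of all features), with a median change of 0.42 over the 8, against -0.01 for all features. Some genes of this list resemble each other in sequence, and how far the probes of Trim30a and Trim30d, or of Trim12a and Trim12c, also read each other's transcripts was not tested.

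The letters around the start sites of these genes are shown because 4 of the 7 Trim genes that rose hold a run resembling the interferon-stimulated response element, a site through which interferon switches genes on. The run searched was GAAA, any 2 bases, then GAAA, on either strand (TTTC, any 2 bases, TTTC where it lies on the opposite strand), within 250 bases before to 50 after each start in RefSeq (GRCm38.p6). Overlapping matches were allowed. The motif was chosen after the changes were known. Sequences run 5′ to 3′ on the gene's strand, with matches in capitals.
Trim30a (chr7:104465194-104465269, minus strand): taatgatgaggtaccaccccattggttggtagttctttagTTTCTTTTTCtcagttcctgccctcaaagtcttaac
Trim30d (chr7:104507850-104507930, minus strand): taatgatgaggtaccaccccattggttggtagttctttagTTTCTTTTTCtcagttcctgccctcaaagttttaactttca
Trim21 (chr7:102565447-102565476, minus strand): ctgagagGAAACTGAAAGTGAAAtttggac
Trim34a (chr7:104244457-104244486, plus strand): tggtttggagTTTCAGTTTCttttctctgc
Trim12a (chr7:104315466-104315495, minus strand): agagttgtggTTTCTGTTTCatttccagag
Trim12c (chr7:104353350-104353418, minus strand): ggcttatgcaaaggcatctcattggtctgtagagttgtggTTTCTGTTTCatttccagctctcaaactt

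The Trim21 stretch holds 2 overlapping matches and each of the others 1. The bases before the start sites shown for Trim30a and Trim30d share an identical run of 118 bases, and those of Trim12a and Trim12c one of 71 bases. Trim30a has a further listed start whose window also holds the letters; it is not shown. Among all 32851 windows, 3.44% held the letters, and counted by gene, 3.99% of 27025 genes had a window that did. Of the tested members with a window, 8 of 32 held them: Trim21, Trim30a, Trim30d and Trim34a among the 7 that rose, 0 of 2 that fell, and Trim2, Trim12a, Trim12c and Trim26 among the 23 not called. A match is a description of the sequence, not of binding.

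Trim30a encodes a ligase known to restrain signalling from Toll-like receptors. Control levels of Trim30a were 6.89, 6.91, 6.84 and 6.97 in floxed and 6.74, 6.92, 6.82 and 6.84 in Il6-deficient animals. Cryolesioned levels were 8.22, 8.22, 7.25 and 8.01 in floxed and 7.30, 7.87, 7.11 and 7.61 in Il6-deficient animals. Every cryolesioned animal lay above every control, and floxed cryolesioned animal 3 was the lowest of its group. Trim30a rose by 0.92 ± 0.13 (SE, limma adjusted p = 0.00898).

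Trim30d, a close copy of Trim30a, moved in the same direction. Trim30d stood at 6.35, 6.37, 6.44 and 6.52 in floxed and 6.36, 6.37, 6.58 and 6.27 in Il6-deficient controls. Cryolesioned animals reached 7.60, 7.45, 6.81 and 6.95 in floxed and 6.89, 6.96, 6.81 and 6.91 in Il6-deficient animals. The 8 cryolesioned animals again lay above the 8 controls, with animals 1 and 2 of the floxed group highest. Its change was 0.75 ± 0.12 (SE, limma adjusted p = 0.0120). A second, dimmer probe of Trim30d gave 0.31.

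Trim34a is an interferon-induced neighbour of Trim5. Floxed controls had Trim34a levels of 6.88, 6.95, 6.72 and 6.98 and Il6-deficient controls of 6.84, 6.67, 6.85 and 6.82. Floxed cryolesioned animals had 7.75, 7.41, 6.95 and 7.46 and Il6-deficient cryolesioned animals 6.95, 7.29, 7.26 and 7.11. The lowest cryolesioned animals overlapped the floxed controls. Trim34a rose by 0.54 ± 0.10 (SE, limma adjusted p = 0.0167), while its other probe above background in all 16 channels gave 0.24.

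Trim21 encodes a cytosolic receptor for antibody Fc that marks antibody-bound particles for destruction. In controls, Trim21 was 6.93, 7.07, 6.93 and 6.96 in floxed and 6.88, 6.83, 6.92 and 6.70 in Il6-deficient animals. In cryolesioned animals it was 7.81, 7.27, 7.16 and 7.21 in floxed and 7.12, 7.33, 7.24 and 7.25 in Il6-deficient mice. The groups did not overlap, and floxed cryolesioned animal 1 stood far above the rest. Trim21 rose by 0.51 ± 0.09 (SE, limma adjusted p = 0.0140).

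The size of these 4 changes depended on the intensities used. With the scanner's processed intensities, Trim30a changed by 1.497, Trim30d by 1.55, Trim34a by 0.93 and Trim21 by 0.83, each over 1.5 times the reported value. With a background offset of 16 in place of 50, the same 4 changed by 1.17, 1.07, 0.72 and 0.68. The brighter Trim25 then changed by 0.83 (reported 0.79) and Trim37 by -0.69 (reported -0.71). The cause was not tested.

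The remaining tested genes of the chromosome 7 list were Trim12a, Trim12c, Trim68 and Trim3, and none was called. Trim12c, a duplicate of Trim12a, lay just outside the threshold at 0.28 ± 0.07 (limma adjusted p = 0.0548), and Trim12a followed at 0.33 ± 0.10 (adjusted p = 0.0711). A second Trim12c probe of nearly the same brightness gave 0.05, however, and a dimmer Trim12a probe gave -0.04. Trim12c was 6.15, 6.38, 6.34 and 6.28 in floxed and 6.11, 6.12, 6.29 and 6.24 in Il6-deficient controls, and 6.74, 6.72, 6.32 and 6.57 and 6.30, 6.61, 6.31 and 6.50 in the corresponding cryolesioned groups. Trim12a was 7.74, 8.12, 7.76 and 7.85 and 7.83, 7.54, 7.70 and 7.52 in the same controls, and 8.23, 8.11, 7.68 and 8.25 and 7.54, 8.09, 7.84 and 7.97 after cryolesion. Over both genotypes, controls and cryolesioned animals overlapped for both genes. Trim12c was above background in 14 of 16 channels.

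Trim25 and Trim56 act in the sensing of foreign nucleic acid. Trim25 attaches ubiquitin in the pathway of the RNA sensor encoded by Ddx58, and Trim56 acts on the DNA-sensing pathway of Cgas and Sting1. Trim25 levels were 10.14, 10.37, 10.21 and 10.62 in floxed and 10.01, 10.01, 10.05 and 9.96 in Il6-deficient controls. They were 11.14, 11.17, 10.68 and 10.84 in floxed and 10.57, 11.16, 10.72 and 10.98 in Il6-deficient cryolesioned animals. Within each genotype the groups did not overlap. Trim25 rose by 0.79 ± 0.11 (SE, limma adjusted p = 0.00838), while a second, much dimmer probe gave 0.31. Trim25 was called in Il6-deficient animals (0.97 ± 0.16, adjusted p = 0.0337) but not in floxed ones (0.61 ± 0.16, adjusted p = 0.0980). The difference between these effects was 0.36 ± 0.23 and did not pass the interaction test (adjusted p = 1.000).

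Trim56 was 8.62, 9.23, 8.79 and 9.12 in floxed and 8.94, 8.55, 8.60 and 8.93 in Il6-deficient controls. It was 9.57, 9.57, 9.38 and 9.56 in floxed and 9.32, 9.20, 9.05 and 9.24 in Il6-deficient cryolesioned animals. Within each genotype every cryolesioned animal exceeded every control, and floxed exceeded Il6-deficient animals after cryolesion. The fitted genotype difference after cryolesion was -0.26 ± 0.15 and was not called (limma adjusted p = 0.636). Trim56 rose by 0.50 ± 0.13 (SE, limma adjusted p = 0.0468), close to the threshold, and its call was lost under 10 of 19 alternatives.

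The interferon and RNA-sensing genes around these members moved as follows. Of 30 listed names, 25 were tested, 14 rose and 0 fell (backgrounds 6.02% and 5.87% of all features), with a median of 0.64 against -0.01 for all features. Isg15, a ubiquitin-like modifier, rose by 1.82 ± 0.21 (limma adjusted p = 0.00420). Irf7 and Irf9, transcription factors of the response, rose by 1.36 and 1.22. Ddx58 rose by 0.71, Cgas by 0.76 and Sting1 by 0.50. The adaptor Mavs (0.17) and the kinase Tbk1 (-0.22) did not pass. In floxed animals 5 of the 25 rose (background 1.86%) and in Il6-deficient animals 8 (background 1.67%). Among ubiquitin E1 and E2 enzymes, Ube2a and Ube2l3 rose, Ube2b and Ube2e2 fell, and 23 were tested, against the same backgrounds. Among the 5 tested TRIM genes that carry other names, Mefv, which encodes pyrin, rose by 0.70 (background 6.02%).

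**Figure D3:**
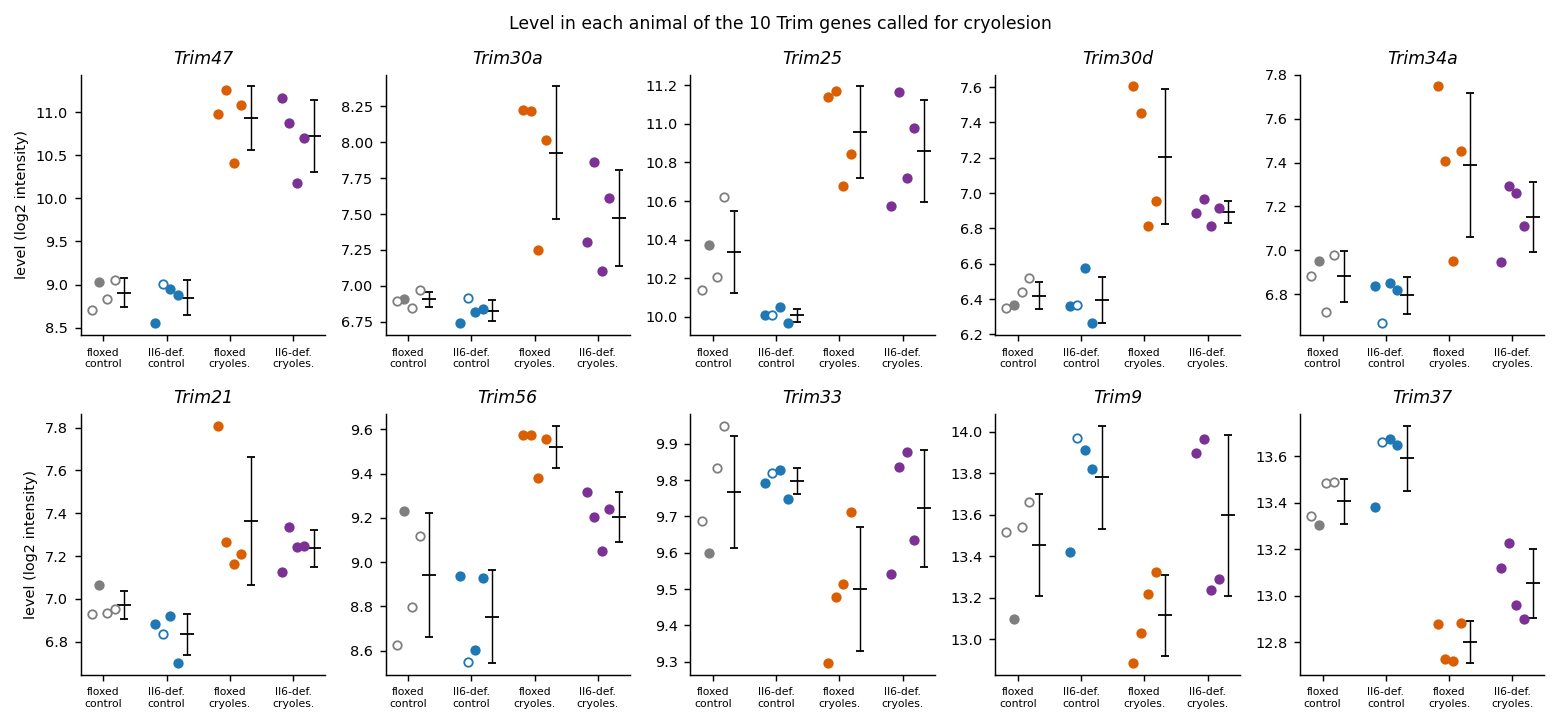
Level (y axis, log2 intensity) in each of 4 animals per group of the 10 Trim genes called for cryolesion, with the group mean and SD beside the points; open circles are animals without Y-linked transcripts above background. Trim47, Trim30a, Trim30d and Trim21 show all 8 cryolesioned animals above all 8 controls, and Trim37 shows them below.

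Trim37 fell most firmly. It encodes a ligase that limits the assembly of extra centrosomes and acts in peroxisomes. Trim37 levels were 13.34, 13.30, 13.49 and 13.49 in floxed and 13.38, 13.66, 13.68 and 13.65 in Il6-deficient controls. They were 12.88, 12.73, 12.72 and 12.88 in floxed and 13.12, 13.23, 12.96 and 12.90 in Il6-deficient cryolesioned animals. All 8 cryolesioned animals lay below all 8 controls, and after cryolesion the Il6-deficient animals lay above the floxed ones. The fitted genotype difference after cryolesion was 0.31 ± 0.10 and was not called (limma adjusted p = 0.564). Trim37 fell by 0.71 ± 0.08 (SE, limma adjusted p = 0.00393). It fell in floxed (by 0.79 ± 0.11, adjusted p = 0.0201) and in Il6-deficient animals (by 0.62 ± 0.11, adjusted p = 0.0430). The call in floxed animals was lost under 7 of 19 alternatives and the call in Il6-deficient animals under 14.

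Trim9 is a brain ligase of axon branching and synapses. Trim9 levels ran 13.52, 13.10, 13.54 and 13.66 in floxed and 13.42, 13.97, 13.91 and 13.82 in Il6-deficient controls. Cryolesioned levels ran 12.89, 13.03, 13.22 and 13.32 in floxed and 13.90, 13.97, 13.24 and 13.29 in Il6-deficient animals. The groups overlapped, and Il6-deficient cryolesioned animals 1 and 2 were as high as the highest controls. Trim9 fell by 0.62 ± 0.14 (SE, limma adjusted p = 0.0313), whereas a dimmer probe of another transcript gave -0.09. The mean levels of the 8 cryolesioned and the 8 control animals differed by less, -0.26. The fitted fall is read from the 4 arrays that paired a cryolesioned with a control animal. Il6-deficient cryolesioned animals 1 and 2 were on the lesion side, not on those arrays. With the mean of all its probes, Trim9 changed by -0.35.

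Trim33 encodes a chromatin reader that regulates Smad signalling. Its controls were 9.69, 9.60, 9.83 and 9.95 in floxed and 9.79, 9.82, 9.83 and 9.75 in Il6-deficient animals. After cryolesion they were 9.30, 9.48, 9.52 and 9.71 and 9.54, 9.84, 9.88 and 9.63 in the same order. The groups overlapped. Trim33 fell by 0.27 ± 0.06 (SE, limma adjusted p = 0.0386), its other probes gave 0.01 and -0.06, and 14 of 19 alternatives lost the call.

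Among the COS-box genes, 1 of 5 tested fell (Trim9) and none rose (backgrounds 5.87% and 6.02% of all features). Their median was -0.15, against -0.01 for all features, and a single call is too few to describe the class. Trim46, which organises microtubules at the start of the axon, changed by -0.22 ± 0.09 (limma adjusted p = 0.184). Trim46 was 11.46, 11.77, 11.72 and 11.27 in floxed and 11.28, 11.80, 11.66 and 11.60 in Il6-deficient controls, and 11.34, 11.32, 11.28 and 11.25 and 11.53, 11.47, 11.31 and 11.41 after cryolesion. Trim67, the closest relative of Trim9, lay on the other side of 0 at 0.35 ± 0.14 (adjusted p = 0.163). Trim67 was 7.12, 6.82, 6.79 and 7.09 in floxed and 6.89, 6.84, 6.97 and 6.62 in Il6-deficient controls, and 7.54, 7.34, 6.67 and 7.27 and 7.02, 6.99, 7.05 and 6.92 after cryolesion. Both genes overlapped between controls and cryolesioned animals. Trim36 changed by -0.15 ± 0.17 and the muscle gene Trim54 by -0.14 ± 0.22. Trim36 was 7.69, 7.77, 7.77 and 8.06 in floxed and 7.88, 7.44, 7.66 and 7.66 in Il6-deficient controls, and 7.86, 7.26, 7.71 and 7.999 and 7.35, 7.15, 7.90 and 7.54 after cryolesion, again with overlap.

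Neuron markers moved beside these genes. Marker calls here are for the mean of both genotypes, where 6.02% of all features rose and 5.87% fell. Camk2a and Map2 fell among 6 tested, and the summed intensity of the list ran from 138000 to 187000 in floxed and 170000 to 209000 in Il6-deficient controls. It ran from 102000 to 118000 in floxed and 112000 to 189000 in Il6-deficient cryolesioned animals. The part of this shift in the changes of Trim9 and Trim37 was not tested. Beside the genes that rose, S100a8 and S100a9 rose among 4 tested neutrophil markers, and Plac8, Chil3 and Ccr2 among 4 tested monocyte markers. The summed neutrophil list ran from 594 to 735 in controls and from 1190 to 4410 after cryolesion. The summed monocyte list ran from 3730 to 5190 in controls and from 4160 to 10100 after cryolesion. Of 6 microglia markers, Cx3cr1 rose and P2ry12, Tmem119 and Csf1r fell, and the summed list ran from 17000 to 22700 in controls and 18600 to 21800 after cryolesion. Gfap and Aqp4 rose among 5 astrocyte markers. Cspg4 fell among 2 markers of oligodendrocyte precursors, and 0 of 2 tested lymphocyte markers were called. The B-cell marker Ms4a1 was above background in 0 animals. Of 4 meningeal markers, Dcn rose and Igf2 fell. Their part in the Trim changes was not tested.

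By each gene's brightest probe, all 4 chromatin-reading members lay below 0, with a median of -0.25 against -0.01 for all features. Dimmer probes lay nearer 0, at 0.05 for Trim28, -0.10 for Trim24, and 0.01 and -0.06 for Trim33. Trim33 alone was called, where 5.87% of all features fell. Trim66 changed by -0.30 ± 0.11 (limma adjusted p = 0.119) and Trim24, a coactivator of nuclear receptors, by -0.23 ± 0.08 (adjusted p = 0.104). Trim66 was 8.67, 8.40, 8.62 and 8.60 in floxed and 8.74, 8.83, 8.75 and 8.57 in Il6-deficient controls, and 8.43, 8.09, 8.22 and 8.04 and 8.71, 8.49, 8.31 and 8.49 after cryolesion. Trim24 was 9.88, 9.56, 9.69 and 9.83 in floxed and 9.72, 9.66, 9.42 and 9.64 in Il6-deficient controls, and 9.19, 9.29, 9.57 and 9.40 and 9.49, 9.40, 9.70 and 9.47 after cryolesion. For both genes the lower levels were mostly in cryolesioned animals, with overlap. Trim28, the corepressor of zinc-finger repressors, changed by -0.12 ± 0.10.

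None of the 4 NHL-repeat genes was called (background 11.9% of all features). Trim32, a ligase of muscle and neurons, changed by -0.60 ± 0.22 (limma adjusted p = 0.126), while a dimmer probe gave -0.14. Its levels were 13.17, 12.50, 13.53 and 13.10 in floxed and 13.28, 13.58, 13.38 and 13.48 in Il6-deficient controls. They were 12.78, 12.63, 12.51 and 12.45 in floxed and 13.07, 12.67, 12.59 and 13.10 in Il6-deficient cryolesioned animals. Floxed control 2 lay with the cryolesioned animals. Trim2, which acts on neurofilament light chain in axons, changed by 0.07 ± 0.16.

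Of the members outside these classes, Trim59 had the lowest fitted change of the family, -0.97 ± 0.34, and was not called (limma adjusted p = 0.116). Trim59 was 10.52, 10.695, 10.23 and 10.76 in floxed and 10.61, 10.15, 10.20 and 10.14 in Il6-deficient controls. It was 8.96, 8.49, 10.12 and 9.63 in floxed and 9.23, 9.22, 10.52 and 9.46 in Il6-deficient cryolesioned animals. Animal 3 of each cryolesioned group lay near the control levels, the floxed one just below the lowest control (10.12 against 10.14). The other 6 lay further below all 8 controls. Trim44, which lacks a RING domain, changed by -0.57 ± 0.15 and lay just outside the threshold (adjusted p = 0.0512). Trim44 was 14.15, 13.22, 14.04 and 14.13 in floxed and 14.04, 14.03, 14.32 and 14.17 in Il6-deficient controls, and 13.60, 13.41, 13.34 and 13.32 and 13.93, 13.82, 13.62 and 13.76 after cryolesion. Floxed control 2 was the lowest of all 16 animals. Trim44 was called under 9 of 19 alternatives, among them the fit without control-side array 2, which holds this animal and Il6-deficient control 2, and a dimmer probe gave -0.04.

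Trim8, a regulator of cytokine signalling, changed by -0.19 ± 0.08 (limma adjusted p = 0.192). Trim8 was 11.58, 11.71, 11.46 and 11.45 in floxed and 11.44, 11.65, 11.40 and 11.43 in Il6-deficient controls, and 11.30, 11.25, 11.35 and 10.92 and 11.28, 11.33, 11.40 and 11.04 after cryolesion. All 8 cryolesioned animals lay below all 8 controls, although the narrowest gap was small. Counted by this separation alone, 4 members were higher in every cryolesioned animal (Trim47, Trim30a, Trim30d and Trim21; 9.3% of 43 against 3.38% of all features). Lower in every cryolesioned animal were 2 members (Trim37 and Trim8; 4.65% against 1.6%).

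Trim13, a ligase of the endoplasmic reticulum, changed by -0.16 ± 0.17. Trim13 was 8.99, 9.04, 8.66 and 9.22 in floxed and 9.16, 8.92, 8.92 and 8.85 in Il6-deficient controls, and 8.74, 8.52, 9.09 and 8.64 and 8.77, 8.33, 9.15 and 8.61 after cryolesion, with overlap. Of the SPRY-domain genes outside the cluster, Trim16 and Trim27 lay above 0 and Trim41 and Trim35 below. Trim16 changed by 0.23 ± 0.08 (limma adjusted p = 0.110), from 6.47, 6.53, 6.57 and 6.51 in floxed and 6.60, 6.42, 6.34 and 6.46 in Il6-deficient controls to 6.76, 6.80, 6.62 and 6.80 and 6.77, 6.50, 6.63 and 6.59. Trim27 changed by 0.21 ± 0.07 (adjusted p = 0.0970), from 10.54, 10.46, 10.62 and 10.53 and 10.66, 10.61, 10.49 and 10.56 to 10.75, 10.89, 10.74 and 10.79 and 10.69, 10.53, 10.63 and 10.76. In floxed mice both genes separated the groups, and in Il6-deficient mice they did not. The interaction, Il6-deficient minus floxed, was -0.09 ± 0.16 for Trim16 and -0.29 ± 0.14 for Trim27, and neither was called. How many of all features separate the groups within a single genotype was not counted. Trim41 changed by -0.37 ± 0.17 (adjusted p = 0.201), from 13.15, 12.62, 13.17 and 13.23 and 13.22, 13.55, 13.43 and 13.34 to 13.01, 12.88, 12.67 and 13.07 and 13.23, 13.32, 12.86 and 12.94, and floxed control 2 was the lowest animal. Trim35 changed by -0.25 ± 0.11, while its dimmer probe gave 0.28. In all, 6 of 21 tested SPRY-domain genes rose and none fell, against backgrounds of 6.02% and 5.87%.

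The remaining 15 tested members ran from -0.15 (Trim68) to 0.19 (Trim14), 9 above 0 and 6 below, and the smallest adjusted p among them was 0.181. Another 21 members were too dim to test. Trim10, Trim30b, Trim31, Trim38, Trim40, Trim43b, Trim50, Trim58, Trim6, Trim60, Trim63, Trim69, Trim7, Trim75 and Trim80 were above background in 0 of 16 channels. Trim15, Trim17 and Trim42 were above background in 1 channel, and Trim34b, Trim55 and Trim61 in 2. Trim5, Trim23, Trim30c and Trim43a had no named probe. Of the 43 tested members, 40 were above background in all 16 channels, Trim65 in 10 and Trim29 in 6.

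Within single genotypes the fit called fewer members. In floxed animals 2 of 43 were called, 4.65% against 3.05% of all features. They were Trim47, which rose (background 1.86%), and Trim37, which fell (background 1.19%). In Il6-deficient animals 3 were called, 6.98% against 2.73%. Trim47 and Trim25 rose (background 1.67%) and Trim37 fell (background 1.07%). A fit of the separate channels, which also uses differences between arrays, called more members, but more of everything. It called 18 members for both genotypes (41.9% against 28.2% of all features), 15 in floxed (34.9% against 16.2%) and 7 in Il6-deficient animals (16.3% against 10.3%). These small counts came to 0 in floxed animals without control-side array 1, either floxed-lesion array, lesion-side array 2 or deficient-lesion array 2. In Il6-deficient animals they came to 0 without floxed-lesion array 1, lesion-side array 2 or deficient-lesion array 2. Over all features the calls under those settings fell from 896 to between 57 and 405 in floxed animals, and from 803 to between 37 and 173 in Il6-deficient animals. By gene, Trim47 lost its call under 6 of 19 alternatives in floxed and 5 in Il6-deficient animals, and Trim25 lost its call in Il6-deficient animals under 10.

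Each array that paired a cryolesioned with a control animal gave a ratio of its own. Trim47 stood at 2.03 and 2.37 on the floxed-lesion side and at 1.34 and 1.64 on the deficient-lesion side. Trim30a stood at 1.40 and 1.38 against 0.26 and 0.64, and Trim25 at 1.09 and 1.20 against 0.51 and 0.36. Trim56 stood at 0.97 and 0.65 against 0.26 and 0.13. All 10 called members were further from 0 on the floxed-lesion side than on the deficient-lesion side, by the mean of 2 arrays each. How many of all features were so was not counted, so this is not shown to be particular to the members. These sides set floxed cryolesioned against Il6-deficient control animals and Il6-deficient cryolesioned against floxed control animals, so each ratio holds a genotype difference too. The sides also differed in sex: both floxed-lesion arrays had a control with Y-linked transcripts and both deficient-lesion arrays a control without. Genotype, sex and array side cannot be told apart in this pattern.

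**Figure D4:**
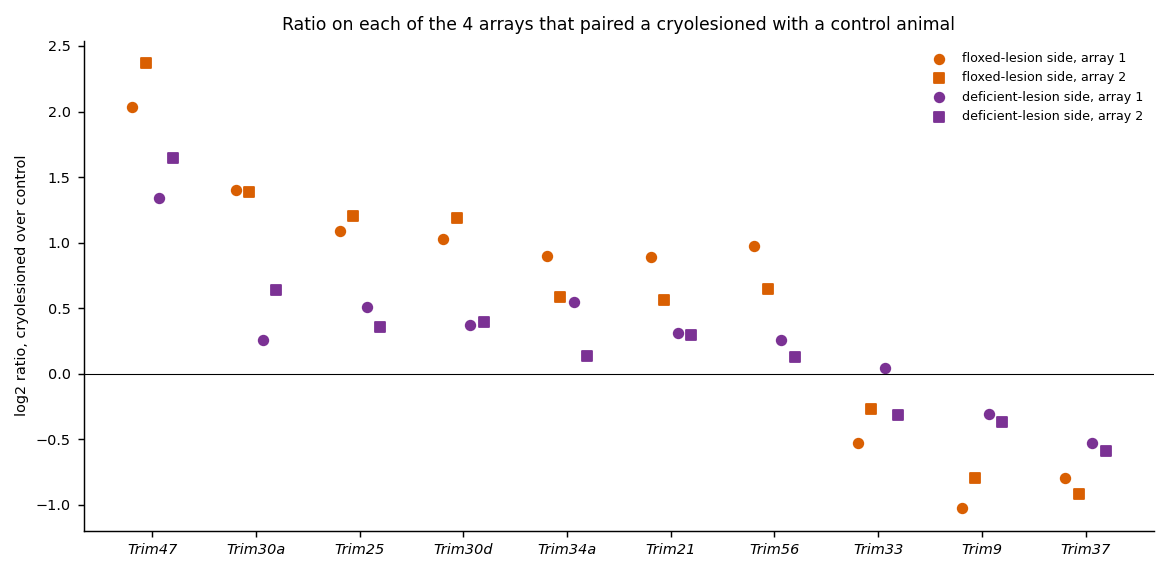
Log2 ratio of the cryolesioned over the control animal (y axis) on each of the 4 arrays that paired them, for the 10 Trim genes called for cryolesion (x axis). Orange marks the floxed-lesion side and purple the deficient-lesion side; orange points lie further from 0 by side mean in all 10 genes.

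Sex was also entered as a covariate. Trim34a, Trim56 and Trim33 then lost their calls, Trim44 and Trim59 gained one, and 9 members were called, while the calls over all features went from 3492 to 2441. Trim34a then changed by 0.52 (limma adjusted p = 0.0545), close to its reported change. Against the 4 controls with Y-linked transcripts alone, the mean difference of the 8 cryolesioned animals kept its sign in all 10 called members, which were called from a fit that includes these controls. It was 1.98 for Trim47, 0.87 for Trim30a, 0.81 for Trim25 and -0.57 for Trim37.

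Il6 deficiency changed no member past the threshold. In limma, 0 of 43 members and 0 of 29362 features were called for genotype in controls, for genotype after cryolesion or for the interaction, a background of 0%. At an unadjusted p under 0.05 there were 2 members in controls, 4 after cryolesion and 0 for the interaction, against 1299, 2529 and 972 of all features. The separate-channel fit also called 0 members in each. In controls the largest differences, Il6-deficient minus floxed, were Trim54 (-0.46 ± 0.27), Trim32 (0.41 ± 0.27), Trim25 (-0.39 ± 0.14), Trim47 (-0.31 ± 0.23) and Trim41 (0.31 ± 0.20). Single arrays differed widely here. Trim54 stood at -1.24 on control-side array 1 and -0.31 on array 2, and floxed control 1, at 7.61, lay above the other floxed controls (6.39 to 6.60). Trim32 stood at 0.10 on array 1 and 1.08 on array 2, and Trim41 at 0.075 and 0.93. After cryolesion they were Trim2 (0.61 ± 0.20), Trim9 (0.54 ± 0.17), Trim36 (-0.46 ± 0.21), Trim44 (0.41 ± 0.18) and Trim66 (0.34 ± 0.13). For the interaction they were Trim2 (0.60 ± 0.32), Trim54 (0.56 ± 0.44), Trim36 (-0.53 ± 0.34), Trim59 (-0.42 ± 0.68) and Trim47 (0.36 ± 0.38). The smallest adjusted p among members was 0.983 in controls, 0.564 after cryolesion and 1.000 for the interaction.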

How the data were processed

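Members and gene lists were chosen with earlier results of these data known. Per the file headers, Agilent Feature Extraction 10.7.3.1 made the scanner files, which hold median spot and background intensity in both channels. The deposited scanner files also give a log10 ratio, used only to check direction. The authors' deposited value table holds log2 ratios whose scaling is unknown: they correlated at 0.966 to 0.977 with the ratios used here, with slopes of 1.11 to 1.25, and served as an alternative. Its column medians lay between -0.0045 and 0.0050.

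Background was corrected with normexp (offset 50) and ratios were normalized by loess within arrays. Outlier spots (115 to 194 an array) were left out. Probes well above background in at least 4 of 16 channels were kept (37352 of 56605). A gene's brightest probe was used, giving 16852 named genes and 12510 unnamed probes. Names came from a RefSeq table (GRCm38.p6), which matched 32994 probes and left 23611 unnamed; promoter sequences are RefSeq's. Ratios were fitted with limma 3.58.1 in R 4.3.3, with a dye intercept (residual degrees of freedom 4, prior 2.95), and the script was tested on simulated data. Levels followed Aquantile normalization between arrays. Values are given in every animal for members called in any contrast or whose call for the mean of both genotypes appears or is lost under an alternative. Fitted changes name the 10 highest, the 10 lowest and the 5 largest genotype or interaction changes. Alternatives changed background, normalization, filter, probe choice, sex, model and each array in turn. Some items are not reported here.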

Additional observations from a re-analysis of the deposited data

Results flagged for a closer look

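Single animals stood apart from the other 3 of their group in 8 of 100 groups examined (25 members in 4 groups), where chance gives about 1 in 20. The gap to the nearest animal, as a share of the group's range, was then past Dixon's critical value. Among called members, Trim34a was low in Il6-deficient control 2 (6.67, the others 6.82 to 6.85) and Trim21 high in floxed cryolesioned animal 1 (7.81, the others 7.16 to 7.27). Trim56 was low in floxed cryolesioned animal 3 (9.38, the others 9.56 to 9.57), and Trim37 was low in Il6-deficient control 1 (13.38, the others 13.65 to 13.68). Floxed control 2 was low in both Trim41 (12.62, the others 13.15 to 13.23) and Trim44 (13.22, the others 14.04 to 14.15). Trim8 was high in Il6-deficient control 2 (11.65, the others 11.40 to 11.44). Trim59 was high in Il6-deficient control 1 (10.61, the others 10.14 to 10.20).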

How the results depend on the processing

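For cryolesion in both genotypes, 10 members were called as reported, 18 by the separate-channel fit, 18 from channel levels with the replicate block and 17 without it, and 2 to 16 when 1 array was left out. In floxed animals the reported 2 became 4 with an offset of 16, 0 with median centring, 1 with processed intensities, 4 with the authors' table, 15 with separate channels, 16 with the replicate block and 14 without it, and 0 to 7 with 1 array left out. In Il6-deficient animals the reported 3 became 5, 0, 1, 5 and 7 in the same order, 5 with the replicate block, 6 without it, 1 with no filter on dim probes, and 0 to 6 with 1 array left out. Over all features the separate-channel fit called 28.2%, 16.2% and 10.3%. Genotype and interaction gave 0 called members throughout. Correlations of same-numbered animals' deviations ran from -0.322 to 0.453 and 13 of 24 exceeded 0.1, among them all 6 between animals numbered 2 (0.180 to 0.327). Since not every pair exceeded 0.1, the numbers were not taken as pairing.

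Of single changes, 725 kept direction and side of the threshold, 91 lost a call, 90 gained one and 6 reversed, all of uncalled members. Changes for the mean of both genotypes include fits without a control-side or lesion-side array, which could not move the change itself. Without floxed-lesion array 2, Trim2 became -0.098, Trim54 0.20 and Trim36 0.017. Without deficient-lesion array 2, Trim36 became 0.0022 and Trim13 0.012. With 1 array left out, the opposite extreme was 0.18 for Trim2, -0.34 for Trim54, -0.44 for Trim36 and -0.46 for Trim13. With the mean of all its probes, which lay on both sides of 0, Trim35 became 0.015. The cause of the other reversals was not tested. Trim12c, a dim member, ran from 0.16 to 0.90 over the alternatives.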
